A study of Homo sapiens with 9 samples.

Results

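The 10 genes described here encode transcription factors of the myeloid blood lineage: SPI1 (PU.1), the CCAAT/enhancer-binding proteins CEBPA, CEBPB, CEBPD, CEBPE and CEBPG, and GFI1, IRF8, KLF4 and MYB. They were picked by gene symbol, 10 of the 25680 symbols in the count tables, and each was represented by its RefSeq transcript with the highest total count. RNA was sequenced from SKNO-1, a human acute myeloid leukaemia line with the RUNX1-RUNX1T1 (AML1-ETO) fusion, grown with GM-CSF according to the study's methods. All 3 groups carried the fusion: shControl (EV in the labels), and the lines with either of 2 shRNAs against ASXL2, shASXL2-2 and shASXL2-3 (SH2 and SH3), with 3 samples in each. The study describes a control shRNA, whereas the label EV may mean an empty vector, so the kind of control is uncertain for every difference given here. ASXL2 encodes a chromatin protein that associates with the BAP1 deubiquitinase. The samples of each group were numbered 1, 13 and 25. The study describes them as biological replicates, and the labels do not say what the numbers stand for. Because this was 1 established cell line, the values describe that line under shRNA and not primary cells. In bulk RNA, fewer expressing cells and less RNA per cell cannot be told apart.

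PU.1 and the C/EBP proteins bind enhancers of granulocyte and monocyte genes. PU.1 and C/EBPα set the myeloid programme in progenitors, C/EBPε acts in the late neutrophil, and C/EBPβ and C/EBPδ respond to cytokines and inflammatory signals. C/EBPγ lacks a strong activation domain and pairs with other bZIP proteins. GFI1 is a zinc-finger repressor that favours neutrophils over monocytes, IRF8 and KLF4 favour monocytes, and MYB keeps progenitors dividing and undifferentiated. In t(8;21) leukaemia the fusion protein binds RUNX sites and is known for holding down C/EBPα.

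The 9 libraries held 27714431 to 35406063 counts with 1 transcript per gene, so 3 counts, the limit taken for a gene with no count, came to 0.0847 to 0.108 CPM (counts scaled by TMM to a common library size). The limit covers counting error only. ASXL2 was at 67.9, 67.9 and 74.7 CPM in the shControl samples numbered 1, 13 and 25, at 30.4, 36.2 and 36.2 CPM with shASXL2-2 and at 26.9, 29.1 and 41.1 CPM with shASXL2-3. The means were 48.8% and 46.1% of the control mean, and no knockdown sample overlapped a control sample. Averaged over the shRNAs, the log2 fold change was -1.09 ± 0.08 (SE) with the sample number as a block (edgeR, adjusted p = 0.00098), and the adjusted p was 0.178 without the block. The library of shASXL2-3 numbered 1 stood apart. Its counts differed from the others of its group by a chi-square per degree of freedom of 119 and 128, against 17.6 to 53.3 for all other pairs within groups. Markers of leukaemic progenitors were high (MPO, 6368 to 10243 CPM; KIT, 237 to 419 CPM; RUNX1T1, 111 to 138 CPM), except CD34 at 0.068 to 0.309 CPM. The 6 markers of neutrophil maturation summed to at most 0.136 CPM in any sample, with LTF, MMP8 and CEACAM8 at 0. The 6 erythroid markers summed to at most 0.375 CPM. The 5 T-cell markers summed to 1.13 to 2.22 CPM with CD3E and CD3G at 0, and the 5 stromal and endothelial markers to 1.78 to 4.09 CPM with CDH5 at 0.

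The start regions of the members showed an uneven base composition. RefSeq promoters (GRCh38.p14) were found for 8 of the 10 members, and not for SPI1 and CEBPD. IRF8, which had no count in any sample, CEBPE, which was abundant, and MYB, among the most abundant, are printed for contrast. Each is the 250 bases before an annotated start, 5′ to 3′ on the gene's strand, with each CG dinucleotide in capitals.
IRF8, chr16:85902580-85902829 (plus strand): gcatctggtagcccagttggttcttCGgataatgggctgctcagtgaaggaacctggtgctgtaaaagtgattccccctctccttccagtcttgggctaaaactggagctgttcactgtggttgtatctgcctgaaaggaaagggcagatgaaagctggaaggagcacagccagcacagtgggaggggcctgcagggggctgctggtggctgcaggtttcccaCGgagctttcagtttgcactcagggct
CEBPE, chr14:23119256-23119505 (minus strand): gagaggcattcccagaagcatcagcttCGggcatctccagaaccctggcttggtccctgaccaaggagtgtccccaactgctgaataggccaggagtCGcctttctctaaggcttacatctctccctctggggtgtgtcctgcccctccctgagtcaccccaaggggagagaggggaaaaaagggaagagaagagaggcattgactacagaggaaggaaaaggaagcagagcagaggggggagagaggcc
MYB, chr6:135181058-135181307 (plus strand): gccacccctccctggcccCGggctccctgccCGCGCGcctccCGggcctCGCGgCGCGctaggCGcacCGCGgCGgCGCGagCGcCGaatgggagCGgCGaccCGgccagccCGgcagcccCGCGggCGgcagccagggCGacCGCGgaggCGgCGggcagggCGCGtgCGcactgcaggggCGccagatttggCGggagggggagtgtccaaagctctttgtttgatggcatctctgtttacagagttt
The IRF8 and CEBPE windows each held 2 CG dinucleotides, a number or fewer found in 22.9% of the 35093 windows of that length in the table. The MYB window held 34, and 94.2% of windows held that many or fewer. CEBPA had 41 CG dinucleotides and KLF4 had 25. The silent IRF8 and the abundant CEBPE thus both had a CG-poor printed window, so that this count did not separate them. The windows (GRCh38) were not matched to the gene positions given below (GRCh37). The printed IRF8 window may therefore not precede the main start of that gene. Of 4 motifs searched on both strands, the RUNX core TGTGGT was in 11.0% of all windows, and lay 134 bases before the start of IRF8 and 47 bases before one of the 3 starts of GFI1. The MYB motif CAACTG was in 9.0% of all windows, and lay 176 bases before the start of CEBPE and 237 bases before the printed start of IRF8. TTGCNNCAA, the pattern searched for C/EBP, was in 1.62% of windows and lay 100 bases before the other start of IRF8. This pattern is longer than the C/EBP palindrome TTGCGCAA, which was not searched for and is present in a GFI1 window. Its matches therefore do not count C/EBP sites. GAGGAAGT (PU.1) was in 2.17% of windows and in none of the 13 windows of the members. No match overlapped another.

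Levels of different genes were compared as CPM per kilobase of the canonical transcript, in the shControl samples. SPI1 was highest at 153 ± 2.08 CPM per kilobase (SD, n = 3) and MYB followed at 133 ± 14.9, GFI1 at 80.9 ± 6.92 and CEBPE at 56.8 ± 2.2. The samples of these 4 genes did not overlap those of their neighbours in the order. SPI1 was above 96.6% of the 12338 tested genes that have a length. CEBPD at 18.7 ± 3.44 and CEBPG at 17.0 ± 1.59 overlapped each other, as did CEBPB at 9.06 ± 1.26 and CEBPA at 7.30 ± 0.54. KLF4 was far lower, at 0.352 ± 0.163 CPM per kilobase, and above 8.45% of those genes. IRF8 had 0 counts in all 9 libraries, 275533992 counts in all, which allows up to 0.0109 CPM (unscaled) over the libraries together. Thus 9 of the 10 members passed the filter on low counts and were tested.

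**Figure D1:**
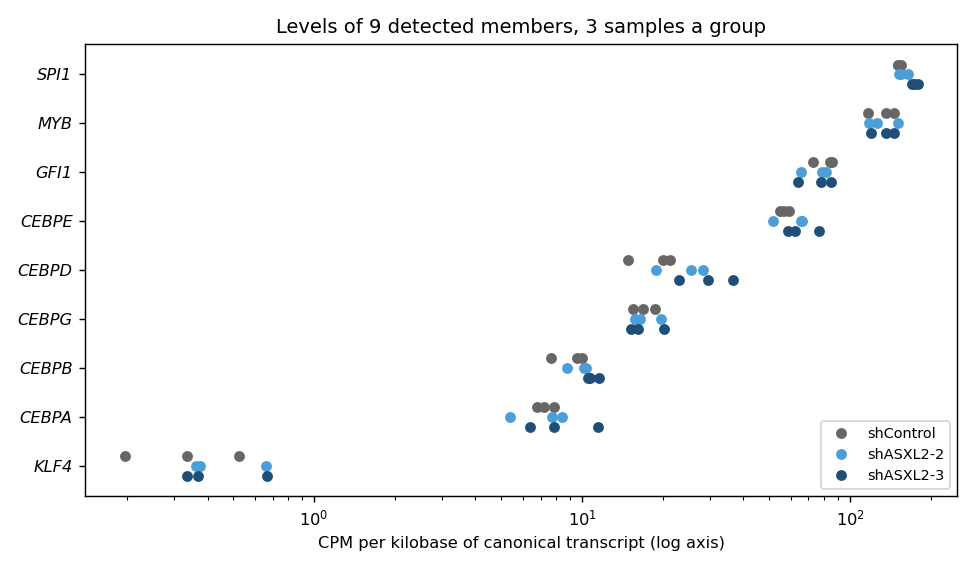
CPM per kilobase of canonical transcript on a log axis for the 9 detected members, with 1 point per sample and 3 points per group. SPI1 and MYB lie to the right, KLF4 lies below 1 in all 9 samples, and IRF8 (0 counts) is not drawn.

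The knockdown comparison asked whether lower ASXL2 went with other levels of these factors. No member passed the threshold of an adjusted p of 0.05 in edgeR's quasi-likelihood test without pairing, in which 0 of 14199 genes (0%) passed in any of the 4 comparisons. Before adjustment, 942 genes (6.63%) had a p under 0.05 with the shRNAs averaged, 762 (5.37%) with shASXL2-2, 723 (5.09%) with shASXL2-3 and 293 (2.06%) between the shRNAs. DESeq2 called 56, 25, 26 and 11 genes. With the sample number as a block (the paired fit), 156 genes passed with the shRNAs averaged (1.10%, 0.254% higher). There were 40 with shASXL2-2 alone (0.282%), 59 with shASXL2-3 alone (0.416%, 0.183% higher), and 15 between the shRNAs (0.106%). CEBPD was the only member among them, higher with the shRNAs averaged and with shASXL2-3. Among the members, 3 (CEBPB, CEBPD and KLF4) exceeded the control at every sample number with shASXL2-2, as in 27.1% of tested genes, and 5 (these and SPI1 and CEBPE) with shASXL2-3, as in 20.2%. No member had all 6 knockdown samples above all controls (2.16% of tested genes) or below them (2.61%), nor all shASXL2-2 samples above all controls (7.15%).

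CEBPD stood at 25.1, 18.5 and 26.6 CPM in shControl, in the order 1, 13 and 25. Under shASXL2-2 the level was 35.3, 23.6 and 32.0 CPM. Under shASXL2-3 it reached 45.7, 28.9 and 37.1 CPM. At each number shASXL2-2 lay above shControl and shASXL2-3 above shASXL2-2. Over all numbers, the shASXL2-3 samples did not overlap the controls, whereas the shASXL2-2 sample numbered 13 lay below the controls numbered 1 and 25. The ratio to the control of the same number was 1.40, 1.28 and 1.20 with shASXL2-2, and 1.82, 1.56 and 1.39 with shASXL2-3. The order shControl, shASXL2-2, shASXL2-3 at all 3 numbers was met by 248 of the 14199 tested genes (1.75%), among the members by CEBPD and CEBPB.

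The log2 fold change of CEBPD for both shRNAs averaged was 0.52 ± 0.19 (SE) without the block, adjusted p = 0.694. In the paired fit it was 0.51 ± 0.07, adjusted p = 0.0291. For shASXL2-3 alone the paired value was 0.66 ± 0.08 (adjusted p = 0.0203, against 0.967 without the block), and for shASXL2-2 0.37 ± 0.08 (adjusted p = 0.0873). The shRNAs differed by 0.29 ± 0.08, adjusted p = 0.216, in the paired fit. With a correction for transcript length in the paired fit, the averaged value was 0.42, adjusted p = 0.0522, and that of shASXL2-3 was 0.58, adjusted p = 0.0335. DESeq2 with the block gave adjusted p values of 2.21e-05, 0.0294 and 1.39e-06 for both shRNAs, shASXL2-2 and shASXL2-3.

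The paired call of CEBPD depended on single libraries, and its direction did not. Leaving out 1 library at a time, the averaged log2 fold change stayed at 0.43 to 0.59, with adjusted p values of 0.00139 to 0.148. The call was lost without any 1 of the 3 shControl or the 3 shASXL2-2 libraries, and kept without any 1 of the shASXL2-3 libraries. For shASXL2-3 alone the value stayed at 0.58 to 0.74, with adjusted p values of 0.00268 to 0.105, and the call was kept only without the shASXL2-3 libraries numbered 1 or 13. Without the shASXL2-3 library numbered 1, which stood apart, CEBPD was 0.48 higher on the log2 scale for both shRNAs averaged (adjusted p = 0.00139) and 0.37 higher for shASXL2-2 (adjusted p = 0.00842). In that fit 1755 genes passed for both shRNAs averaged, against 156 with all libraries and 2 without, for example, the shControl library numbered 1. Without all 3 samples numbered 1, CEBPD was 0.43 higher (adjusted p = 0.00674) and 370 genes passed. In that fit CEBPA was 0.49 higher with shASXL2-3 than with shASXL2-2 (adjusted p = 0.0442), a call not made with all samples. The 7 monocyte markers summed to 2.35 to 3.41 CPM in shControl, 2.32 to 3.68 CPM with shASXL2-2 and 2.75 to 5.99 CPM with shASXL2-3, with FCN1 at 0. The 5 megakaryocyte markers, nearly all ITGA2B, summed to 98.8 to 110 CPM, 56.7 to 69.9 CPM and 62.7 to 145 CPM in the same order, with PF4 at 0. The 5 B-cell markers, mostly CD79B, summed to 62.4 to 67.7 CPM, 60.7 to 70.6 CPM and 51.8 to 60.2 CPM, with MS4A1 at 0, and PAX5 of that list was lower (-0.79 ± 0.14, adjusted p = 0.0412 in the paired fit, 0.623 without the block and 0.0892 with length correction). The part of these marker levels in the CEBPD difference was not tested.

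**Figure D2:**
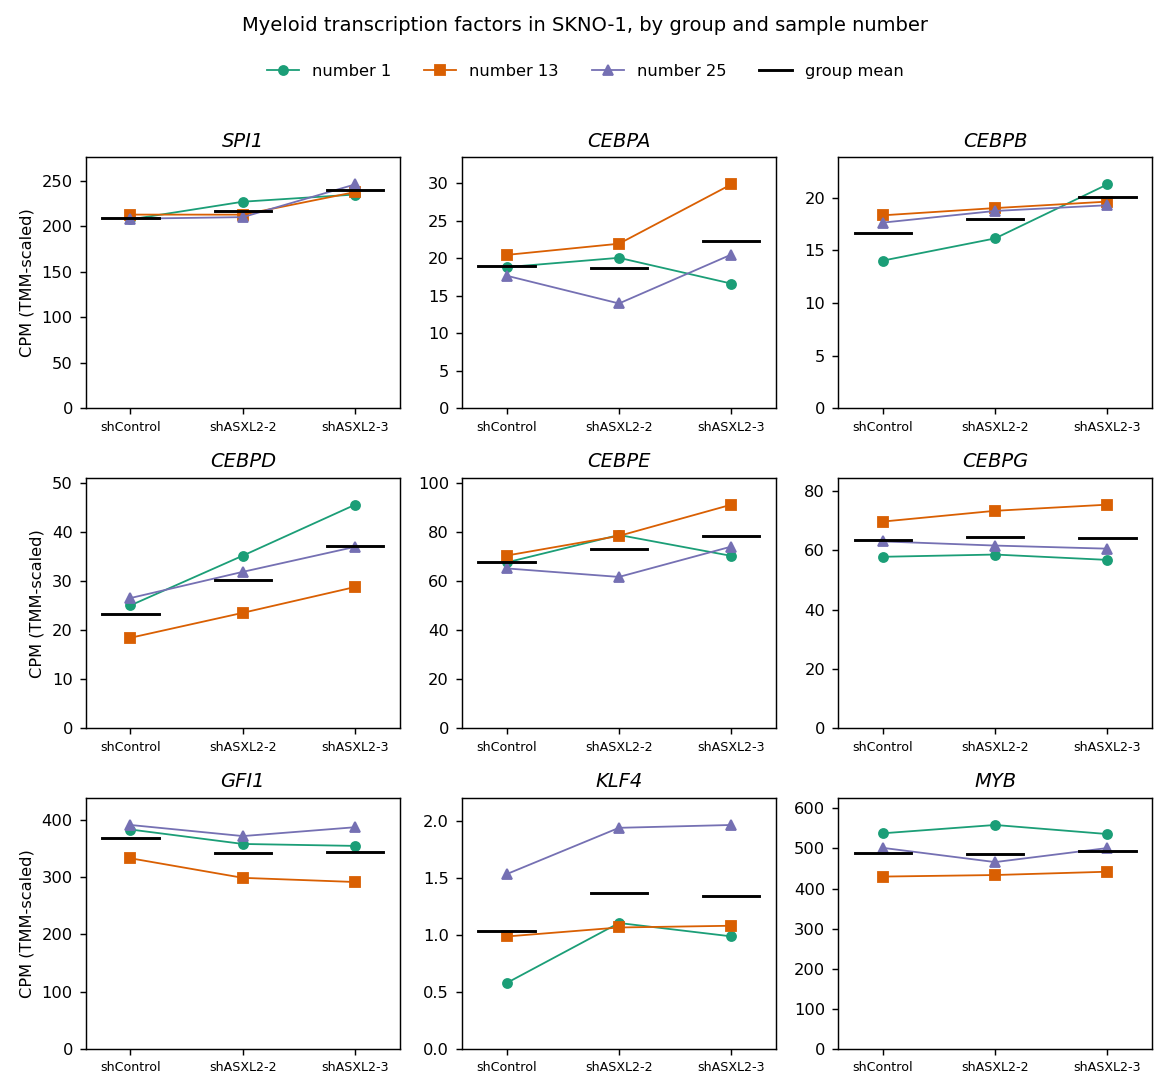
CPM of the 9 detected members in shControl, shASXL2-2 and shASXL2-3, with a line for each sample number and a black bar for the group mean (n = 3). The CEBPD lines rise in every step, from 25.1 to 45.7 CPM at number 1, and the lines of CEBPG, GFI1 and MYB lie apart by number.

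SPI1, CEBPB and CEBPE were highest on average with shASXL2-3, but none passed in either fit. SPI1 was at 208, 213 and 208 CPM in the shControl samples numbered 1, 13 and 25, at 227, 213 and 210 CPM with shASXL2-2 and at 235, 238 and 246 CPM with shASXL2-3. The shASXL2-3 samples lay above all others, and the shASXL2-2 samples overlapped the controls. For shASXL2-3 the log2 fold change was 0.19 ± 0.08, adjusted p = 0.967 without the block and 0.168 with it. With length correction in the paired fit it was 0.11 (adjusted p = 0.377), while the averaged value went from 0.12 to 0.03 and that of shASXL2-2 from 0.05 to -0.04. CEBPB was at 14, 18.3 and 17.6 CPM in shControl, at 16.1, 19.0 and 18.8 CPM with shASXL2-2 and at 21.3, 19.6 and 19.3 CPM with shASXL2-3. It was above the control of its number in 6 of 6 knockdown samples, an order met by both shRNAs in 11.6% of the tested genes, and the log2 fold change for shASXL2-3 was 0.27 ± 0.13, adjusted p = 0.971 without the block and 0.204 with it. The shASXL2-3 samples of 3 members, SPI1, CEBPB and CEBPD, lay above all control samples, as in 4.81% of the tested genes. CEBPE was at 67.5, 70.3 and 65.1 CPM in shControl, at 78.7, 78.3 and 61.7 CPM with shASXL2-2 and at 70.2, 91.1 and 74.0 CPM with shASXL2-3. These groups overlapped, and the value for shASXL2-3 was 0.21 ± 0.13, adjusted p = 0.971 without the block and 0.246 with it. Length correction brought the paired value of CEBPE from 0.21 to 0.12 (adjusted p = 0.504).

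CEBPA, the factor best known as a target of the fusion, was at 18.8, 20.4 and 17.7 CPM in shControl, at 20.1, 21.9 and 14 CPM with shASXL2-2 and at 16.6, 29.9 and 20.5 CPM with shASXL2-3. The knockdown samples lay on both sides of the controls. The averaged log2 fold change was 0.11 ± 0.20, adjusted p = 0.977. CEBPG, at 56.8 to 75.4 CPM in all 9 samples, differed by 0.02 ± 0.12, adjusted p = 0.992. KLF4 rested on 21 to 56 counts per library, and lay at 0.578, 0.987 and 1.53 CPM in shControl, at 1.10, 1.07 and 1.94 CPM with shASXL2-2 and at 0.987, 1.08 and 1.97 CPM with shASXL2-3. It was above the control of its number in 6 of 6 knockdown samples, with a log2 fold change of 0.40 ± 0.38, adjusted p = 0.935. In the paired fit the value was 0.42 ± 0.20, adjusted p = 0.263.

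Neither the repressor GFI1 nor the progenitor factor MYB passed between groups. GFI1 was at 383, 332 and 391 CPM in shControl, at 357, 298 and 371 CPM with shASXL2-2 and at 354, 291 and 387 CPM with shASXL2-3. It lay below the control of its number in 6 of 6 knockdown samples, as both shRNAs did in 11.6% of the tested genes, with a log2 fold change of -0.10 ± 0.12, adjusted p = 0.952. MYB, above the control of its number in 3 of 6 knockdown samples, was at 538, 430 and 502 CPM in shControl, at 559, 434 and 466 CPM with shASXL2-2 and at 536, 442 and 501 CPM with shASXL2-3. Its log2 fold change was 0.00 in size with an SE of 0.12, adjusted p = 1.00. Over the 9 members tested, 7 lay above 0 on the log2 scale with the shRNAs averaged, without the block. The median of the 9 was 0.12, against 0.01 over all tested genes. The 7 was not compared with the share of all tested genes above 0. Length correction lowered the paired values of CEBPD (0.51 to 0.42), SPI1 (0.12 to 0.03), CEBPE (0.15 to 0.06), CEBPB (0.20 to 0.13) and CEBPA (0.08 to 0.05). KLF4 was then at 0.40, while CEBPG (0.03), GFI1 (-0.07) and MYB (0.01) moved up.

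**Figure D3:**
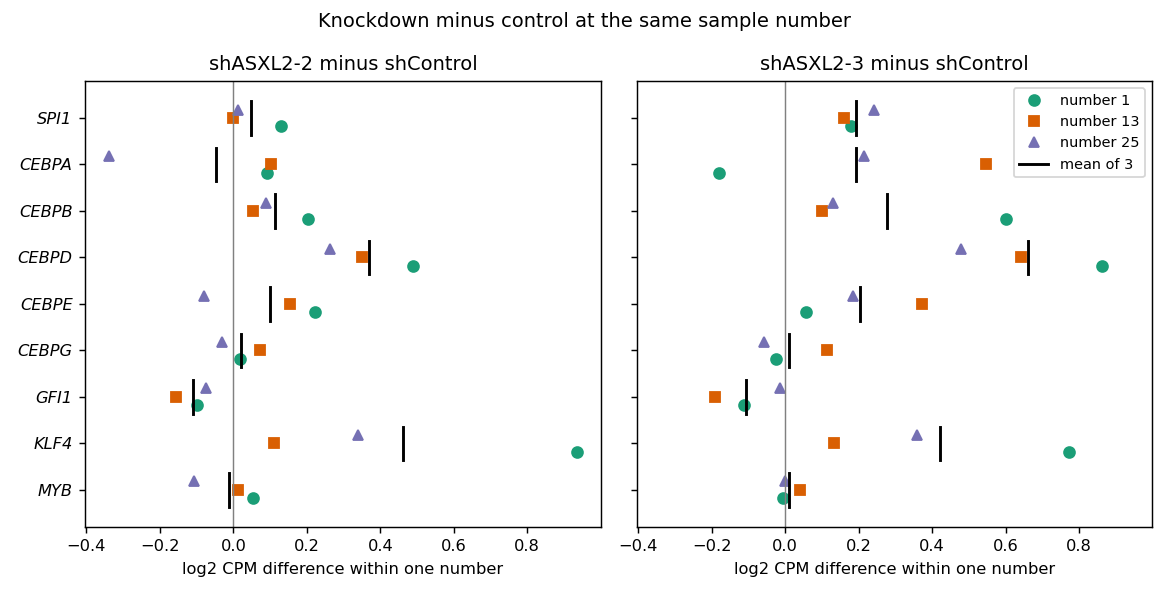
Log2 CPM difference of each knockdown sample from the control of the same number, for shASXL2-2 (left) and shASXL2-3 (right), with a black bar for the mean of 3. CEBPD lies to the right of 0 in all 6 differences, from 0.26 to 0.86, and GFI1 to the left in all 6.

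Several members differed between sample numbers. In edgeR with number and group in the model, the samples numbered 13 and 25 averaged differed from those numbered 1 in 6570 of 14199 genes (46.3%; 22.2% higher and 24.1% lower), and 4 of the 9 members passed, a share near that of all genes. CEBPD was lower (log2 fold change -0.34 ± 0.07, adjusted p = 0.00352) and MYB was lower (-0.24 ± 0.06, adjusted p = 0.0094). CEBPG was higher (0.22 ± 0.06, adjusted p = 0.0102) and KLF4 was higher (0.65 ± 0.20, adjusted p = 0.0223). The averaged value of CEBPD joins unlike differences, as its mean was 35.3 CPM at number 1, 23.7 at 13 and 31.9 at 25. CEBPD at number 25 lay above number 1 in shControl (26.6 against 25.1 CPM), and below it with shASXL2-2 and shASXL2-3. Between numbers 25 and 13, 833 genes passed (5.87%, 2.77% higher), and 2 of the 9 members did: CEBPD, higher by 0.44 ± 0.08 (adjusted p = 0.0151), and GFI1, higher by 0.32 ± 0.07 (adjusted p = 0.0239). CEBPA at -0.47 ± 0.15 (adjusted p = 0.0867), CEBPG at -0.24 ± 0.06 (adjusted p = 0.0553) and KLF4 at 0.79 ± 0.22 (adjusted p = 0.059) did not pass. CEBPA passed at the same size with no filter on low counts (adjusted p = 0.0362) and in DESeq2 (adjusted p = 0.0373). SPI1 was the steadiest, at -0.01 ± 0.06 and 0.00 ± 0.07 for these contrasts (adjusted p = 0.859 and 0.999).

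Samples numbered 13 held the extremes of several members. GFI1 and MYB were lower in all 3 samples numbered 13 than in the other 6, an order found in 3.79% of tested genes, and CEBPG was higher in all 3, an order found in 4.34%. The mean of MYB was 544 ± 12.6 CPM at number 1 and 435 ± 6.21 CPM at number 13 (SD over the 3 groups). The mean of CEBPG was 57.7 ± 0.906 CPM at number 1 and 72.8 ± 2.89 CPM at number 13. In each group CEBPD, GFI1 and MYB were lowest at number 13 (8.23% of tested genes), and CEBPA and CEBPG were highest there (9.10%). KLF4 was highest in the 3 samples numbered 25, as were 9.54% of tested genes.

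Some of these calls depended on 1 library or on the group term. Without the group term CEBPD did not pass in either contrast (adjusted p = 0.139 and 0.331), nor GFI1 between numbers 25 and 13 (adjusted p = 0.0606). Between numbers 25 and 13, CEBPD lost its call without shControl 13 or 25, shASXL2-2 13 or 25, or shASXL2-3 25 (adjusted p = 0.0509 to 0.115). GFI1 lost it without any 1 of the 6 libraries numbered 13 or 25 (adjusted p = 0.0519 to 0.135). KLF4 against number 1 lost its call without shControl 1 (0.47, adjusted p = 0.13) and in DESeq2 (adjusted p = 0.0943). Without shASXL2-3 numbered 1, CEBPA (adjusted p = 0.0031), CEBPE (0.0151), CEBPG (0.0128) and KLF4 (0.0197) passed between numbers 25 and 13. Calls rose among all genes in that fit, to 2750 from 833 with all libraries. CEBPB was then 0.29 higher against number 1 (adjusted p = 0.0119), a contrast in which 4813 to 6282 genes passed with 1 library left out. MYB, CEBPG and CEBPD kept their calls against number 1 without any 1 library.

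**Figure D4:**
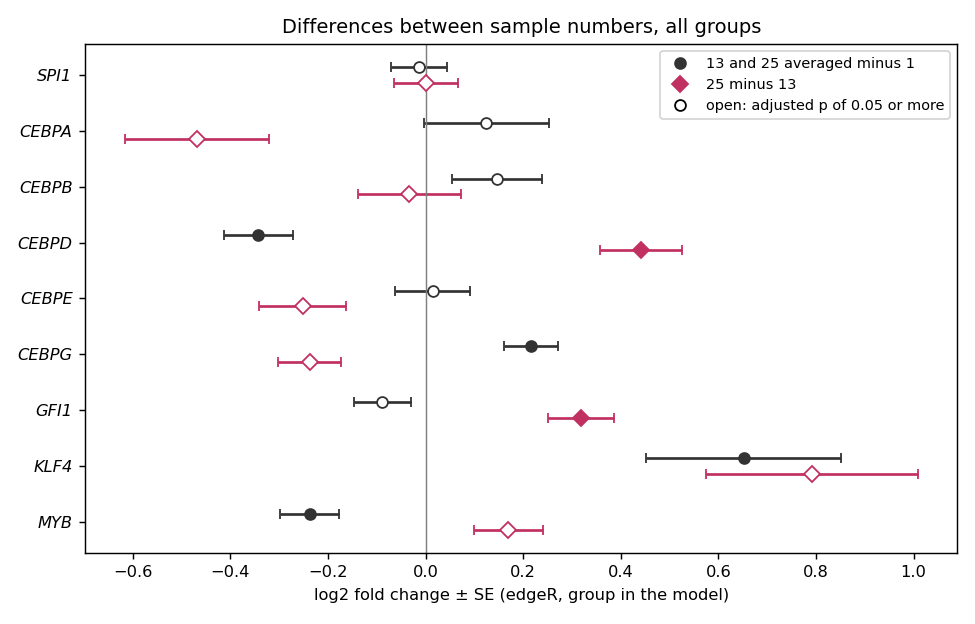
Log2 fold change ± SE of the 9 detected members between sample numbers, over all 3 groups, with filled symbols for an adjusted p under 0.05. CEBPD and MYB lie left of 0 for 13 and 25 against 1 and right of 0 for 25 against 13, and SPI1 lies near 0 in both.

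Among 26 partners, inhibitors and cofactors of the members, 25 were tested, and 0 passed for both shRNAs averaged in edgeR with or without the block. Before adjustment, 12 had a p under 0.05 with the block, where 20.4% of all tested genes did, and 4 without it. The coactivators EP300 and CREBBP had the smallest p values. EP300 was at 151, 150 and 139 CPM in shControl, at 94.2, 135 and 108 CPM with shASXL2-2 and at 96.1, 113 and 125 CPM with shASXL2-3, so that all knockdown samples lay below the controls (log2 fold change -0.40 ± 0.09, adjusted p = 0.069 with the block and 0.646 without it). Length correction gave -0.26 (adjusted p = 0.146). CREBBP was -0.36 ± 0.10 (adjusted p = 0.0906 with the block and 0.728 without it), and -0.18 with length correction (adjusted p = 0.273). GATA2, a progenitor factor, was -0.23 ± 0.07 (adjusted p = 0.113) and ID2, an inhibitor of helix-loop-helix factors, 0.24 ± 0.08 (adjusted p = 0.132). Between numbers 13 and 25 averaged and number 1, 3 of the 25 rose and 4 fell, where 22.2% of all tested genes rose and 24.1% fell. FLI1, an ETS factor, fell by 0.61 on the log2 scale (adjusted p = 0.000336). CBFB, the partner of RUNX1, rose by 0.48 (adjusted p = 0.00148) and ID2 by 0.31 (adjusted p = 0.00905). EGR1, an early response factor, was at 51.8 to 68.5 CPM in the samples numbered 1, at 10.2 to 11.7 CPM in those numbered 13 and at 140 to 209 CPM in those numbered 25. Its averaged value of -0.44 (adjusted p = 0.00471) joins opposite differences, lower at 13 and higher at 25 in every group.

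Of 10 genes listed as paralogues of the members, 5 were tested. CEBPZ, among those tested, shares the C/EBP name but was not shown here to be a paralogue. The other 5 (SPIB, SPIC, IRF4, MYBL1 and GFI1B) stayed below 0.5 CPM in every sample. None of the 5 tested genes passed between groups in edgeR with or without the block, where 0 had an unadjusted p under 0.05 for both shRNAs averaged. KLF2 had the largest value, 0.88 ± 0.46 (adjusted p = 0.305 with the block), and its highest level, 1.53 CPM, was in the shASXL2-3 library numbered 1, against at most 0.407 CPM in all others. MYBL2, the paralogue of MYB that acts in dividing cells, rose by 0.48 ± 0.08 at numbers 13 and 25 against 1 (adjusted p = 0.00185), where MYB was lower.

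Of 22 known target genes of the members, 17 were tested, and 1 passed for both shRNAs averaged in the paired fit, where 1.10% of all tested genes did. CSF3R, the G-CSF receptor and a C/EBPα and PU.1 target, was at 282, 219 and 174 CPM in shControl, at 234, 141 and 124 CPM with shASXL2-2 and at 207, 152 and 147 CPM with shASXL2-3. It lay below the control of its number in every knockdown sample, as both shRNAs did in 11.6% of the tested genes, though the groups overlapped. The paired log2 fold change was -0.43 ± 0.08 (adjusted p = 0.0385, against 0.806 without the block and 0.062 with length correction). The next smallest p values had the opposite sign: NCF1, a subunit of the phagocyte oxidase, at 0.57 ± 0.21 (adjusted p = 0.165), ITGAM, an integrin of mature myeloid cells, at 0.50 ± 0.19 (adjusted p = 0.178), and CTSG, a granule protease, at 0.40 ± 0.15 (adjusted p = 0.186). NCF1 lay at 0.990 to 2.50 CPM only and CTSG at 8.39 to 17.9 CPM. ITGAM lay at 1.29 to 3.10 CPM, with its highest level in the shASXL2-3 library numbered 1. The median of the 17 targets was 0.07 against 0.01 over all tested genes. Against number 1, 2 of the 17 targets rose and 7 fell at numbers 13 and 25, with a median of -0.17 against -0.01. In that contrast 22.2% of all tested genes rose and 24.1% fell. The cytokine receptors IL6R (-1.05 ± 0.10, adjusted p = 0.000159), CSF1R (-1.0 ± 0.17, adjusted p = 0.00147) and CSF3R (-0.61 ± 0.08, adjusted p = 0.000448) and the granule protein AZU1 (-0.37 ± 0.06, adjusted p = 0.00138) had the smallest p values. CSF1R lay at 1.10 to 3.98 CPM only.

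The profiles of CEBPD, KLF4 and CEBPA over the 9 samples varied most, with an SD of log2 CPM of 0.39, 0.52 and 0.30. The genes with the most similar centred profiles to CEBPD, by the root-mean-square difference in log2 CPM, were DPCD (0.10), KMO (0.12) and MTFP1 (0.13). Those nearest to KLF4 were USP2-AS1 (0.17), DUSP2 (0.20) and ECM1 (0.21), and those nearest to CEBPA were TRIM36 (0.12), RASGRP2 (0.12) and RASSF2 (0.13). These likenesses describe 9 samples that share numbers and groups.

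On GRCh37 the members lie on different chromosomes except for CEBPA and CEBPG. SPI1 is at chromosome 11, 47376411 to 47400098, CEBPA at chromosome 19, 33790840 to 33793440, CEBPG at chromosome 19, 33864591 to 33873592, and CEBPB at chromosome 20, 48807367 to 48809205. CEBPD is at chromosome 8, 48649475 to 48650726, CEBPE at chromosome 14, 23586245 to 23589465, and GFI1 at chromosome 1, 92938600 to 92952482. IRF8 is at chromosome 16, 85932722 to 85956212, KLF4 at chromosome 9, 110247133 to 110252763, and MYB at chromosome 6, 135502446 to 135540311. CEBPA, CEBPB and CEBPD have a single exon. Exons of antisense transcripts overlap those of CEBPA by up to 541 bases, CEBPB by 231, KLF4 by 201 and MYB by 103, and without strand such reads cannot be told apart from the gene's own.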

How the data were processed

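Poly(A) RNA of SKNO-1 cells was sequenced in 9 samples. The deposited files held whole-number counts per RefSeq transcript on hg19, not normalized, and the submitters' processing notes name STAR, featureCounts and DESeq2. The labels' extraction text describes sorted bone marrow cells, unlike the stated line. Libraries were unstranded per the study's methods. Each symbol took its transcript with the highest total, as isoform rows repeat reads.

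Counts were tested with edgeR 4.0.16 (R 4.3.3) by the quasi-likelihood test with TMM scaling, after filterByExpr (minimum count 10, minimum total 15). P values were adjusted by Benjamini-Hochberg over 14199 genes, and SEs derived from the F statistic. The main fit had groups only. A paired fit added the sample number, since deviations from group means correlated between same-numbered samples in all 9 pairs (lowest 0.398, mean 0.598). The pairing rests on this check, not on the labels. Contrasts between numbers came from the same additive fit. The study's own test was Cuffdiff, which was not used here. Alternatives were DESeq2 1.42.0 with and without the block, DESeq2 size factors, no filter, the mean over transcripts, a length correction (loess, 12338 genes with a length) and leaving out each library. Leaving out libraries in the paired fit, and all samples numbered 1, was added after seeing the data. Scripts were tested on simulated data. Genes outside the members were named by smallest p, 4 per list, for both shRNAs in the paired fit and for numbers 13 and 25 against 1. SPIB, SPIC, IRF4, MYBL1, GFI1B and single cell type markers were named for their level or call after values were seen. The members and lists were chosen with earlier results of these data known. Gene positions and canonical lengths came from a GENCODE annotation on GRCh37.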

Additional observations from a re-analysis of the deposited data

How the results depend on the processing

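Counts of genes past the threshold depended on the fit. With the replicate block they were 156, 40, 59 and 15 for both shRNAs averaged, shASXL2-2, shASXL2-3 and the difference between the shRNAs, against 0 in each without it. In the DESeq2 Wald test they were 56, 25, 26 and 11, in DESeq2 with the block 622, 374, 474 and 152, and with the block and length correction, over 12338 genes, 13, 6, 21 and 7. Leaving out 1 library without the block gave 0 to 2 genes for both shRNAs averaged and 0 to 1 for shASXL2-3, and with the block 2 to 1755 and 1 to 368. Between numbers 25 and 13, 833 genes passed, 304 without the group term and 50 to 2750 with 1 library left out (50 without shControl 25 and 2750 without shASXL2-3 numbered 1). The block with all samples changed no call of a member other than CEBPD.

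Small values changed sign. Leaving out 1 library, the averaged log2 value of the shRNAs against shControl ran from -0.0298 to 0.19 for CEBPA, from -0.0459 to 0.0924 for CEBPG and from -0.0857 to 0.0723 for MYB, which was 0.00907 with the block and length correction. Between numbers 13 and 25 and number 1 it ran from -0.0393 to 0.032 for SPI1, from -0.0839 to 0.29 for CEBPA and from -0.0859 to 0.11 for CEBPE. Between numbers 25 and 13 it ran from -0.10 to 0.0471 for CEBPB and from -0.0176 to 0.0308 for SPI1, which was -0.0039 with no filter. The cause of these changes was not tested. KLF4 had the fewest counts of the members tested, 21 to 56 per library.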
